A study of Mus musculus with 2 samples.

Results

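Yap1, Wwtr1, Tead1, Tead2, Tead3, Tead4, Vgll2, Vgll3 and Vgll4 are the nuclear end of the Hippo pathway, and were taken by gene symbol as 9 of the 55536 annotated genes measured. They were measured by total RNA-seq in gastrocnemius, the large calf muscle, of male B6CASTF1/J mice aged 14 days, which are offspring of C57BL/6J and CAST/EiJ parents. The data held 1 group of 2 biological replicate libraries from 300 ng of RNA each, with added ERCC RNAs (synthetic transcripts of known amount) and no treatment, mutation or second age. The labels mention 3 males but carry 1 shared donor identifier, which leaves unsettled whether replicate 1 and replicate 2 came from different animals. Every p-value measures only whether these libraries differ beyond counting error, and no spread between animals was estimated. The totals were 40825601 expected counts in replicate 1 and 37329025 in replicate 2, where an expected count is the estimated number of reads of a gene. Acta1, Ckm, Myh4, Ttn, Tnnt3 and Mylpf, the markers of muscle fibres, were all above 1 TPM (a transcript level corrected for length and depth), with summed levels of 93020 TPM in replicate 1 and 99611 in replicate 2. All 9 genes were also at or above 1 TPM in both libraries, a level reached by 49.2% of protein-coding genes, and all 9 passed the minimum of 10 counts over both libraries used in the test.

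TEAD proteins are transcription factors that bind DNA through a TEA domain and have little activity of their own until a partner joins them. Yap1 and Wwtr1 (also called TAZ) are partners that the Hippo kinases keep out of the nucleus by phosphorylation, and the Vestigial-like (VGLL) proteins are a second family of partners that bind the same surface of TEAD. In skeletal muscle the TEAD site is known as the MCAT element, found before contractile protein genes. YAP and TEAD are known there for roles in growth, regeneration and fibre type.

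The TEAD genes share a short exon of 63 bases, counted as exon 4 in the leading transcript of each, and Tead1 and Tead3 each have a second copy of it. These exons are shown because Tead1 transcripts differ in which of its pair they hold. Sequences are from the GENCODE M21 transcripts on the mm10 build, 5′ to 3′ in the direction of the gene, and capitals mark bases that differ from the second 63-base exon of Tead1.
Tead1 second 63-base exon, chr7:112842040-112842102, plus strand: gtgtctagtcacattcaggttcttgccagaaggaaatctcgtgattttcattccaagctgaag
Tead1 first 63-base exon, chr7:112841888-112841950, plus strand: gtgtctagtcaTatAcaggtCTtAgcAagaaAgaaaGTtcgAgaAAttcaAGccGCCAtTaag
Tead2 63-base exon, chr7:45219144-45219206, plus strand: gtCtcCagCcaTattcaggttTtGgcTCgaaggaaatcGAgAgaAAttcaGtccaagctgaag
Tead3 63-base exon, chr17:28336511-28336573, minus strand: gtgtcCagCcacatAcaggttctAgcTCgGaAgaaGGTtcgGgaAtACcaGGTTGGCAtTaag
Tead3 alternative 63-base exon, chr17:28336274-28336336, minus strand: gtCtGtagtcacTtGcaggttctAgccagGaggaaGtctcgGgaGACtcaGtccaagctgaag
Tead4 63-base exon, chr6:128251540-128251602, minus strand: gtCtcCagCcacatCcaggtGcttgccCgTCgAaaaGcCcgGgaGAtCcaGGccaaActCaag
The first and second Tead1 copies had 44 of 63 bases in common, or 69.8%. The second Tead1 copy was closest to the alternative exon of Tead3, with 81.0% identical bases, and next to the Tead2 exon, with 77.8%. The first Tead1 copy was closest to the exon of Tead3-206, with 73.0%. The 2 copies of Tead3 shared 63.5% of their bases, fewer than either shared with its closest Tead1 copy.

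The start of the 4 TEAD coding regions also differs in the annotation, and the start codon is in capitals with 12 bases on each side.
Tead1-201 start codon, chr7:112759483-112759485, plus strand: cctgccgaaaacATGgaaaggatgagc
Tead2-201 start codon, chr7:45217219-45217221, plus strand: cgggaggcccagATGggggatccccgg
Tead3-206 start codon, chr17:28341548-28341550, minus strand: gcaaccagcacaATAgcgtccaacagc
Tead4-201 start codon, chr6:128271070-128271072, minus strand: aaggccggcaccATTacctccaacgag
The leading Tead1 and Tead2 transcripts are annotated to start at ATG, while those of Tead3 and Tead4 are annotated to start at ATA and ATT.

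Tead1 (ENSMUSG00000055320.17, chromosome 7, 112679318 to 112906807, plus strand), the TEAD factor long known to bind MCAT elements of muscle genes, was the highest of the 9 genes. Gene coordinates here and below are those of GENCODE M21 on mm10. The level of Tead1 was 48 TPM in replicate 1 and 51.4 in replicate 2, a mean of 49.7 ± 2.38 TPM (SD, n = 2 libraries), from 8685 and 8451 expected counts. Tead1 ranked 1044 among 22028 protein-coding genes by mean TPM. The other TEAD genes were all far below it. Tead4 (ENSMUSG00000030353.15, chromosome 6, 128224288 to 128300823, minus strand), which is known to be induced when cultured mouse myoblasts differentiate, had 4.92 TPM in replicate 1 and 5.26 in replicate 2, a mean of 5.09 ± 0.240 TPM. Tead3 (ENSMUSG00000002249.21, chromosome 17, 28331671 to 28350817, minus strand), known in human for expression in the placenta, had 5.18 TPM in replicate 1 and 2.84 in replicate 2, a mean of 4.01 ± 1.65 TPM. Tead2 (ENSMUSG00000030796.17, chromosome 7, 45215753 to 45233644, plus strand), known from the early mouse embryo, had 3.21 TPM in replicate 1 and 3.19 in replicate 2, a mean of 3.20 ± 0.0141 TPM. The Tead2 value is less certain than this spread: the bounds of the quantifier's own interval in TPM were 4.44 to 7.76 in replicate 1 and 4.09 to 7.25 in replicate 2, both above the listed level, and the second quantification of the same reads gave 6.68 and 5.78 TPM.

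Tead1 made up most of the TEAD transcripts in both libraries. It was 78.3% of the summed TPM of the 4 TEAD genes in replicate 1 and 82.0% in replicate 2, a mean of 80.1% ± 2.61. Within a library the Tead1 level was 15.5 ± 0.813 times that of Tead2, 13.7 ± 6.24 times that of Tead3 and 9.76 ± 0.00711 times that of Tead4, as means of the per-library ratios of TPM. The wide error of the ratio to Tead3 came from 9.27 in replicate 1 and 18.1 in replicate 2. In the second quantification the Tead1 share of the TEAD sum was 75.0% ± 1.22, below the first quantification by more than the spread between libraries. The ratios there were 9.53 ± 1.46 to Tead2, 14.7 ± 5.66 to Tead3 and 6.59 ± 0.975 to Tead4. The small SD of the first ratio to Tead4 thus does not cover the difference between methods. No p is given for a ratio, since the smallest that an exact sign-flip test of 2 values allows is p = 0.5.

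Yap1 and Wwtr1, the coactivators, were both present and of similar order. Yap1 (ENSMUSG00000053110.13, chromosome 9, 7931999 to 8004596, minus strand) had 21.4 TPM in replicate 1 and 19.2 in replicate 2, a mean of 20.3 ± 1.57 TPM from 2596 and 2171 expected counts. Wwtr1 (ENSMUSG00000027803.14, chromosome 3, 57455649 to 57575910, minus strand) had 14.5 TPM in replicate 1 and 15.3 in replicate 2, a mean of 14.9 ± 0.594 TPM from 2132 and 2109 expected counts. Yap1 was thus above Wwtr1 in both libraries, by 1.48 times in replicate 1 and 1.25 times in replicate 2, and neither their ranges nor their interval bounds overlapped. The summed level of the TEAD genes was 1.76 ± 0.0760 times that of the 2 coactivators, whereas the sum of the 3 VGLL genes was 0.908 ± 0.0988 times that of the coactivators.

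Vgll2 (ENSMUSG00000049641.14, chromosome 10, 52022502 to 52028471, plus strand), a TEAD partner known to be enriched in skeletal muscle, was the highest VGLL gene and the second of all 9 by mean. Its level was 25.4 TPM in replicate 1 and 19.2 in replicate 2, a mean of 22.3 ± 4.35 TPM from 1159 and 834 expected counts. Vgll4 (ENSMUSG00000030315.15, chromosome 6, 114860628 to 114969994, minus strand), which carries a pair of TEAD-binding motifs and is known to compete with YAP for TEAD, had 7.09 TPM in replicate 1 and 6.38 in replicate 2, a mean of 6.74 ± 0.502 TPM. Vgll3 (ENSMUSG00000091243.2, chromosome 16, 65815257 to 65866368, plus strand), known in mouse and human myoblasts as a TEAD partner, had 2.62 TPM in replicate 1 and 3.31 in replicate 2, a mean of 2.97 ± 0.488 TPM. Vgll2 made up 72.3% of the summed VGLL level in replicate 1 and 66.5% in replicate 2, a mean of 69.4% ± 4.12. The fourth gene of the family, Vgll1, had 0 counts in both libraries, which allows a level of up to 0.0740 CPM (counts scaled to library size) in replicate 1 and 0.0811 in replicate 2 at a floor of 3 counts, for counting error only.

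**Figure D1:**
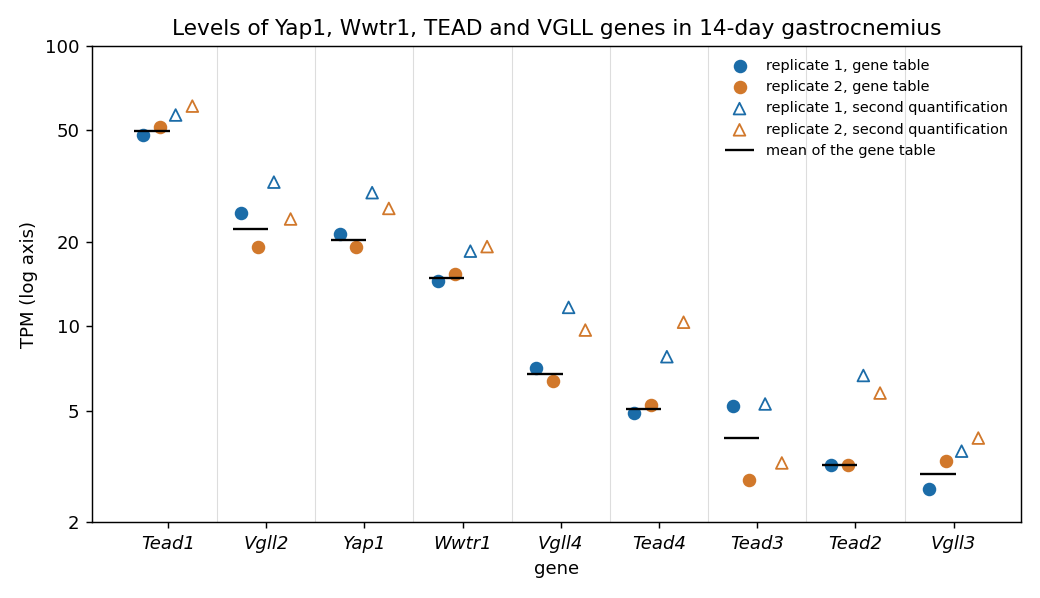
Level of each of the 9 genes in TPM (log axis) per library, with filled circles for the gene table, open triangles for the second quantification of the same reads, and a black line for the mean of the gene table. Tead1 lies near 50 TPM in both libraries, and Tead3 shows the widest gap between libraries, with 5.18 TPM in replicate 1 and 2.84 in replicate 2.

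By mean TPM the order was Tead1, Vgll2, Yap1, Wwtr1, Vgll4, Tead4, Tead3, Tead2 and Vgll3. Neighbours were counted as apart where neither the library values nor the interval bounds within a library overlapped. By that rule Tead1 was above Vgll2, Yap1 above Wwtr1, and Wwtr1 above Vgll4. Vgll2 and Yap1 were not apart, nor were adjacent genes among the 5 lowest. In the second quantification all 9 means were higher, from 3.79 TPM for Vgll3 to 58.9 TPM for Tead1. Its order of the lower genes differed: Tead2 had a mean of 6.23 TPM there, above the 4.27 TPM of Tead3.

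Because the tissue is a mixture of cells, each level is a mean over muscle fibres, connective tissue, vessels, nerve and blood. A lower level from fewer cells of a type and one from less RNA per cell cannot be told apart here. Markers of fibro-adipogenic progenitors summed to 312 TPM in replicate 1 and 285 in replicate 2, led by Dcn and Mfap5. Markers of endothelial cells, led by Cdh5 and Pecam1, summed to 166 TPM in replicate 1 and 142 in replicate 2. Satellite cell markers, of which Sdc4 and Vcam1 were highest, summed to 39.8 TPM in replicate 1 and 30.4 in replicate 2. Sdc4 alone had 32.8 TPM in replicate 1 and 23.2 in replicate 2, whereas Pax7, a defining marker, had 1.46 TPM in replicate 1 and 1.74 in replicate 2. In which of these cells the 9 genes were transcribed was not measured.

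Replicate 1 and replicate 2 were compared gene by gene by a binomial test, exact and two-sided, of the rounded counts, scaled between libraries by TMM (a factor from the bulk of genes), with Benjamini-Hochberg adjustment over 17245 genes. This test asks whether a gene differs between these libraries beyond counting error, not whether a condition changed it. It called 4 of the 9 genes, where it called 21.5% of all genes tested. The share over all genes rises with counts: it was 13.9% with a minimum of 1 count and 26.8% with a minimum of 50. With the minimum of 50 counts 5 of the 9 were called. Of the 4 called with the minimum of 10 counts, 2 were higher in replicate 1, against 10.6% of all genes, and 2 higher in replicate 2, against 10.9%. The median absolute difference on the log2(TPM + 1) scale was 0.13 for the 9 genes and 0.12 for all genes tested.

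Tead3 had 310 counts in replicate 1 and 177 in replicate 2. The scaled count was 1.58 times as high in replicate 1, with a 95% interval of 1.31 to 1.91 (exact binomial test, adjusted p = 1.59e-05). Vgll2, with 1159 counts in replicate 1 and 834 in replicate 2, was 1.25 times as high in replicate 1, with an interval of 1.14 to 1.37 (exact binomial test, adjusted p = 1.17e-05). Both were also called, in the same direction, with each other scaling, filter and quantification tried.

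Tead1 was lower in replicate 1 than in replicate 2 by a small factor, a ratio of scaled counts of 0.925 with an interval of 0.897 to 0.953 (exact binomial test, adjusted p = 4.92e-06), but it was higher in replicate 1 when libraries were scaled by their ERCC totals, by 0.18 on the log2 scale. Wwtr1 had a ratio of 0.910, with an interval of 0.856 to 0.966 (exact binomial test, adjusted p = 0.0132), and with ERCC totals it likewise turned, to 0.16 on the log2 scale in favour of replicate 1. Scaling by ERCC totals moved the median gene by 0.29 on the log2 scale towards replicate 1, so the directions here are relative to the bulk of genes in each library.

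The other 5 genes were not called. Yap1 came closest, with a ratio of 1.08 and an interval of 1.02 to 1.14 (exact binomial test, adjusted p = 0.0554), and was called, in the same direction, with total counts, with ERCC totals, with TMM over all genes and with a minimum of 50 counts. For Tead4 the ratio was 0.877, with an interval of 0.761 to 1.01, so a difference of about the size seen in Tead1 lies inside it. Tead2, Vgll3 and Vgll4 had ratios of 1.04, 0.927 and 1.05, and their intervals all held 1. Vgll4 was called higher in replicate 1 with ERCC totals, at 0.36 on the log2 scale (exact binomial test, adjusted p = 0.00106). Vgll3 shows how the units differ: its TPM was lower in replicate 1 by 0.25 on the log2(TPM + 1) scale, while the log2 ratio of its scaled counts was -0.11, since the estimated transcript length was 5356 bases in replicate 1 and 4425 bases in replicate 2.

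**Figure D2:**
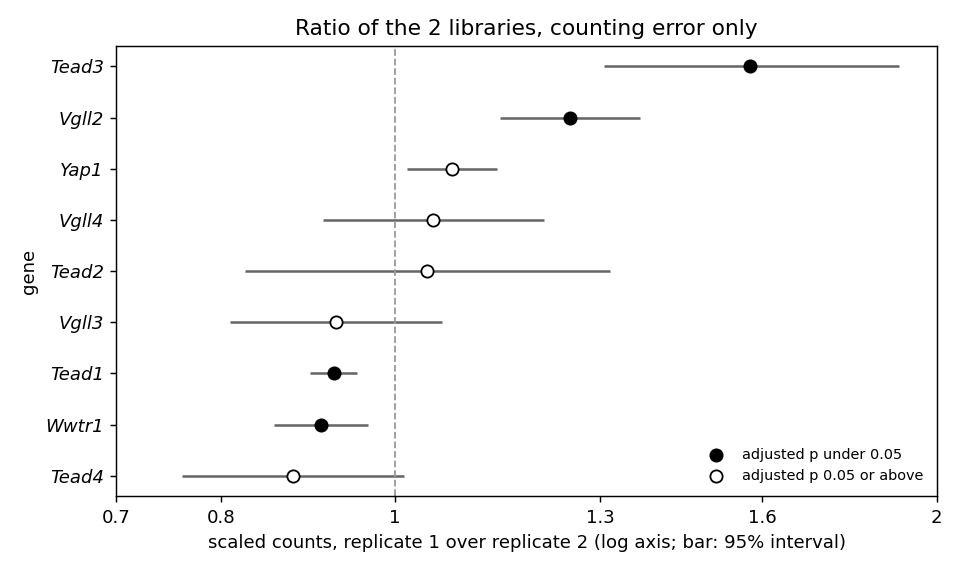
Ratio of scaled counts, replicate 1 over replicate 2 (log axis), for each of the 9 genes, with bars for the 95% interval from counting error, filled points for genes called by the exact binomial test and open points for the rest. Tead3 lies highest at 1.58 and Vgll2 next at 1.25, and Tead1 has a narrow interval, from 0.897 to 0.953.

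Markers of muscle fibres and of some other cells moved between the libraries as well, where the test called 10.6% of all genes higher in replicate 1 and 10.9% higher in replicate 2. Of the 6 muscle fibre markers, Ttn was called higher in replicate 1 and the other 5 higher in replicate 2. With ERCC totals all 6 were called higher in replicate 1. Of the 6 tendon markers, 5 were called higher in replicate 1 and Scx higher in replicate 2, with sums of 226 TPM in replicate 1 and 150 in replicate 2, led by Fmod and Thbs4. All 4 adipocyte markers were called higher in replicate 2, with sums of 0.940 TPM in replicate 1 and 7.51 in replicate 2, led by Adipoq and Plin1. The 3 erythroid markers, led by Hbb-bs and Hba-a1, were called higher in replicate 2, with sums of 977 TPM in replicate 1 and 1347 in replicate 2. Of the endothelial markers 4 of 6, of the fibro-adipogenic markers 2 of 6 and of the satellite cell markers 2 of 6 were called higher in replicate 1, and none higher in replicate 2. The 2 satellite cell markers called were Sdc4 and Calcr. The others were mixed and not called: scaled counts, replicate 1 over replicate 2, had ratios of 0.814 for Pax7, 0.843 for Vcam1, 0.643 for Chrdl2 and 1.29 for Myf5. In the second quantification 1 fibro-adipogenic marker was called higher in replicate 1, and 1 satellite cell marker was called higher in replicate 2. No tendon marker was called higher in replicate 2 there, so the call of Scx was lost. None of these lists had a gene at 0 in either library. Pericyte and smooth muscle markers, led by Acta2 and Rgs5, summed to 346 TPM in replicate 1 and 337 in replicate 2, with 1 of 6 called higher in each library. Macrophage markers, led by Mrc1 and C1qb, summed to 39.4 TPM in replicate 1 and 36.3 in replicate 2, with 1 of 6 called higher in replicate 1. In the second quantification 1 pericyte and smooth muscle marker was called higher in replicate 1 and 2 higher in replicate 2, and no macrophage marker was called. The part of these cells in the differences of Tead3, Vgll2, Tead1 and Wwtr1 was not tested.

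Tead1 has 15 annotated transcripts, 11 of them coding, and its RNA was divided among several that differ in their first exon and in 4 internal exons. Shares are percentages of the summed TPM of all Tead1 transcripts. Tead1-201, a long form of 9964 bases with both 63-base exons, had 28.1% in replicate 1 and 25.3% in replicate 2. Tead1-206, of 1495 bases, has the same internal exons but another first exon and a shorter last exon, and had 25.7% in replicate 1 and 26.2% in replicate 2. Tead1-202, of 9480 bases, lacks the first 63-base exon and a 12-base exon, and had 24.5% in replicate 1 and 25.5% in replicate 2. These 3 forms were close to level with each other in both libraries.

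Smaller shares went to Tead1-212, which lacks the first 63-base exon and an exon of 174 bases, with 6.31% in replicate 1 and 11.6% in replicate 2. Tead1-208, an incomplete model with both 63-base exons, had 5.50% in replicate 1 and 3.72% in replicate 2. Tead1-204, which lacks only the first 63-base exon among the internal ones, was listed at 0 in both libraries.

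The second quantification split the same reads otherwise. There Tead1-201 alone had 50.3% in replicate 1 and 50.2% in replicate 2, while Tead1-206 had 9.15% in replicate 1 and 11.6% in replicate 2, and Tead1-202 had 8.89% in replicate 1 and 6.02% in replicate 2. Tead1-208 had 10.9% and 12.6% there, and Tead1-204, listed at 0 in the first, had 4.84% and 8.07%. By mean share both quantifications thus placed Tead1-201 first, with little spread between libraries and a large difference between methods. The share of expected counts, which favours long transcripts, was 47.2% for Tead1-201, 42.1% for Tead1-202 and 6.51% for Tead1-206 in the first quantification.

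**Figure D3:**
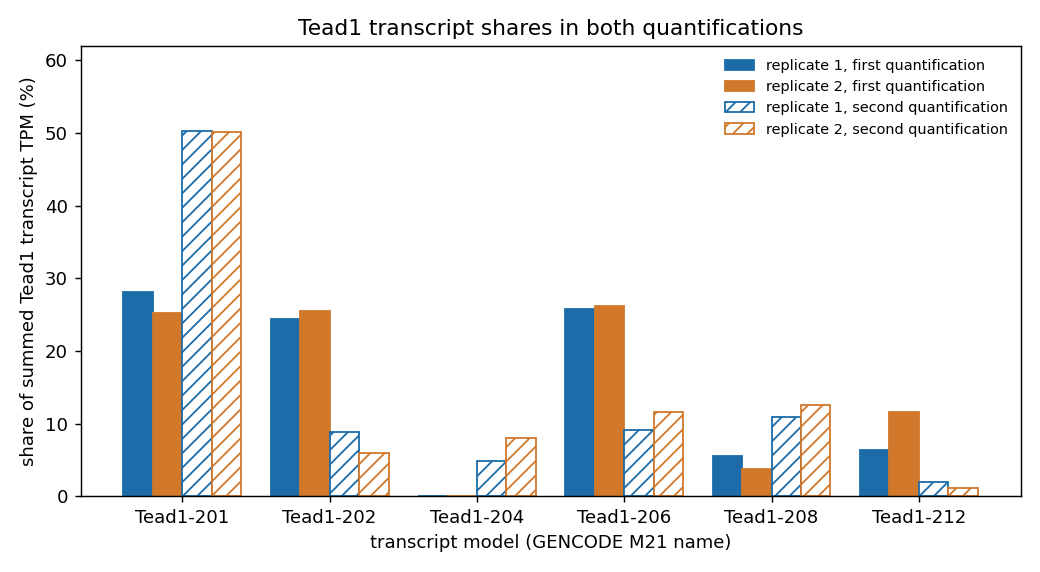
Share of the summed Tead1 transcript TPM in percent, for the 6 transcripts whose mean share reached 5% in either quantification, with solid bars for the first quantification, hatched bars for the second, and a colour for each library. Tead1-201 stands near 50% in the second quantification and below 30% in the first, and the libraries lie close together for this form within each method.

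Read by exon, nearly all Tead1 RNA held the second 63-base exon in both quantifications. Among the 10 transcripts that span the pair of 63-base exons, those with the second copy held 94.2% of TPM in replicate 1 and 96.9% in replicate 2, and 90.7% and 96.5% in the second quantification. Those with the first copy held 65.1% in replicate 1 and 59.5% in replicate 2, and 81.0% and 82.4% in the second quantification. Most TPM of forms with the first copy lay in forms with the second copy too. Forms with both held 60.0% ± 2.87, those with the second alone 35.5% ± 4.76, those with the first alone 2.33% ± 1.10 and those with neither 2.15% ± 0.783. In the second quantification the same 4 classes had 77.2%, 16.4%, 4.50% and 1.89%. The 63 bases of each copy are a multiple of 3, so the reading frame is the same with and without it.

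Next to the 63-base exons lies an exon of 12 bases in Tead1, and Tead3-206 has one in the same place. They are shown with 20 bases of each neighbouring exon in lower case and the exon in capitals, beside the Tead1 junction that skips it.
12-base exon of Tead1, chr7:112856053-112856064, plus strand: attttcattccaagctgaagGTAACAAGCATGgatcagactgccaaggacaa
Junction of Tead1-202 without the 12-base exon, plus strand: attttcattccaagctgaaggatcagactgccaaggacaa
12-base exon of Tead3, chr17:28335485-28335496, minus strand: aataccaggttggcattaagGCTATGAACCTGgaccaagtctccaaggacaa
Tead1 forms with the 12-base exon held 67.4% of TPM in replicate 1 and 67.7% in replicate 2, and 76.7% and 78.6% in the second quantification. The 174-base exon further on, counted as exon 11 of Tead1-201, was in forms with 93.0% of TPM in replicate 1 and 87.4% in replicate 2, and 97.6% and 98.7% in the second quantification. An exon of 174 bases is also found in the leading transcripts of Tead2, Tead3 and Tead4.

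The leading start of Tead1 transcripts differed between the quantifications. Transcripts from the distal first exon, at chr7:112679318-112679726, held 28.1% of TPM in replicate 1 and 25.3% in replicate 2, against 55.1% and 58.2% in the second quantification. Those from the middle first exon, at chr7:112742045-112742129, held 25.7% in replicate 1 and 26.2% in replicate 2, against 9.15% and 11.6% in the second quantification. Those that begin inside the exon with the start codon held 43.1% in replicate 1 and 45.2% in replicate 2, against 32.7% and 24.8% in the second quantification. By TPM the models that begin in the start codon exon thus led in the first quantification and those from the distal exon in the second, in both libraries. Some models of the former class hold little but coding bases, as Tead1-212 with 1071 of 1074 and Tead1-207 with 1245 of 1248. Where transcription began cannot be read from such models. By expected counts in the first quantification, the distal exon had a mean of 47.2% and the start codon exon 45.0%, with the distal exon ahead in replicate 1 and behind in replicate 2. The antisense noncoding gene 2310014F06Rik overlaps Tead1 by 764 bases and had 52 counts in replicate 1 and 64 in replicate 2, few beside those of Tead1. Cd37, on the strand opposite Tead2, overlaps it by 13 bases and had 24 counts in replicate 1 and 18 in replicate 2. Whether counting used the strand is not given in the sources used here.

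**Figure D4:**
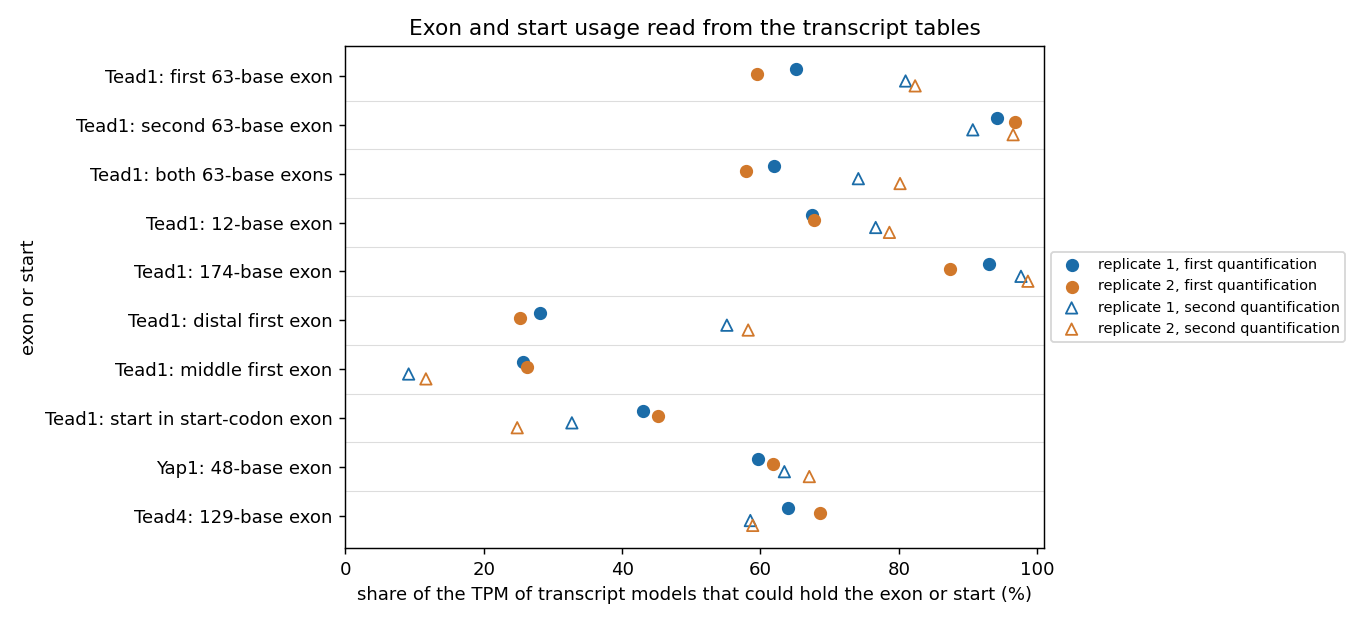
Share in percent of the TPM of the transcripts that could hold each exon or start, for Tead1, Yap1 and Tead4, with filled circles for the first quantification, open triangles for the second and a colour for each library. The second 63-base exon of Tead1 lies above 90% in every library and method, while the distal first exon lies near 27% in the first quantification and near 57% in the second.

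For Yap1 and Tead4, 1 internal exon each was read that only part of the gene's transcripts hold. Other exons of these genes were not examined. The exons read are shown in lower case in full.
48-base exon of Yap1, chr9:7950492-7950539, minus strand: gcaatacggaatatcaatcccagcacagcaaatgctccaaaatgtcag
Exon 5 of Tead4-201, chr6:128247960-128248088, minus strand: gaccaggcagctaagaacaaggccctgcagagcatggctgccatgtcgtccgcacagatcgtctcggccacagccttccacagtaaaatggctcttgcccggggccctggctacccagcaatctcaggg
Yap1-201, with the 48-base exon and 488 codons, had 51.0% of Yap1 TPM in replicate 1 and 52.1% in replicate 2. Yap1-202, without it and with 472 codons, had 38.3% in replicate 1 and 37.2% in replicate 2. Forms with the exon held 60.7% ± 1.49 of the TPM of the transcripts that span it, and 65.3% ± 2.55 in the second quantification. An incomplete model, Yap1-210, had a mean of 3.53% in the first quantification and 13.2% in the second. Tead4-201, the form with the 129-base exon, had 64.0% of Tead4 TPM in replicate 1 and 68.6% in replicate 2, and Tead4-203, without it, had 36.0% in replicate 1 and 31.4% in replicate 2. Among the Tead4 transcripts that span the exon its share was 66.3% ± 3.26, and 58.7% ± 0.244 in the second quantification. Tead4-204, an incomplete model, was listed at 0 in the first quantification and had 1.97% in replicate 1 and 22.8% in replicate 2 in the second.

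The 2 transcripts of Vgll2 differ by 3 bases at the start of the last exon, which are in capitals between 20 bases on each side.
Vgll2-202 junction, chr10:52027431-52027433, plus strand: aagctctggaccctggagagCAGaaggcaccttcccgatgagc
Vgll2-201 junction, plus strand: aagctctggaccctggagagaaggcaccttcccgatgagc
Vgll2-202, with these bases and 322 codons, had 81.6% of Vgll2 TPM in replicate 1 and 84.8% in replicate 2, and a mean of 77.5% ± 1.65 in the second quantification. Vgll2-201, with 321 codons, had the rest. Wwtr1 was nearly all Wwtr1-201, with 99.2% in replicate 1 and 98.3% in replicate 2.

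Vgll4 was split between a coding and a noncoding form. Vgll4-201, coding, had 41.0% of Vgll4 TPM in replicate 1 and 45.0% in replicate 2, and Vgll4-205, a processed transcript with no annotated coding region, had 42.7% in replicate 1 and 44.7% in replicate 2. In the second quantification Vgll4-205 had a mean of 41.6% ± 2.20, Vgll4-201 28.7% ± 9.85, and the incomplete model Vgll4-203, with 1.25% in the first, 21.5% ± 12.4. The shares of Vgll3, Tead2 and Tead3 were less steady between libraries in the first quantification, at 139 to 442 counts per library. The counts of Tead4 and Vgll4, 371 to 433 per library, lay within that range. The cause was not tested. Vgll3-201 had 70.2% in replicate 1 and 54.1% in replicate 2, and Vgll3-202 had 23.7% and 45.9%, while Vgll3-203, a noncoding form, had a mean of 3.05% in the first and 29.5% in the second quantification. Tead3-206 had 28.0% in replicate 1 and 51.6% in replicate 2, ahead on average of Tead3-201 and of the intron-retaining Tead3-204 and Tead3-202, with 19.5%, 19.4% and 9.96%. In the second quantification Tead3-206 had 55.2%, Tead3-205 12.5% and Tead3-202 12.4%. Tead2-201 had 55.5% in replicate 1 and 31.3% in replicate 2. Tead2-216 and Tead2-202 were listed at 0 in replicate 1 and had 33.9% and 28.2% in replicate 2, and the incomplete model Tead2-206, listed at 0 in the first quantification, had 35.7% ± 17.9 in the second.

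The 6-base core of the MCAT element, CATTCC, was looked for on both strands (GGAATG on the other) in RefSeq promoters of GRCm38.p6, from 250 bases before to 50 bases after each gene's start. Yap1, Wwtr1, Tead2, Tead3, Vgll2, Vgll3 and Vgll4, 7 of the 9 genes, matched an entry of the promoter table, and Tead1 and Tead4 are named only. Of the 7, 5 held the core in at least 1 promoter, and 7 of the 10 promoter windows of these 7 genes held it. The windows of Wwtr1 overlap and hold the same match, which is thus counted in each, and those of Tead3 overlap too. Of all promoters listed there, those of 16.6% of 27025 genes and 14.7% of 32851 windows held the core. Matches before a start are shown in capitals with 12 bases on each side, in the direction of the gene.
Yap1, 141 bases before the start, chr9:8004720-8004749, minus strand: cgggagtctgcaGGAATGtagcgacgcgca
Wwtr1, 170 bases before 1 of its starts, chr3:57576029-57576058, minus strand: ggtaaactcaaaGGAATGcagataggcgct
Tead3, 123 bases before the start, chr17:28350706-28350735, minus strand: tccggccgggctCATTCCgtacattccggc
Tead3, 114 bases before the start, chr17:28350697-28350726, minus strand: gctcattccgtaCATTCCggccatccccct
Tead3, 182 bases before another start, chr17:28350970-28350999, minus strand: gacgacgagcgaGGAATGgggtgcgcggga
Vgll3, 63 bases before the start, chr16:65815114-65815143, plus strand: cccgcctccccaCATTCCggctaccctgcc
Vgll4, 82 bases before the start, chr6:114969268-114969297, minus strand: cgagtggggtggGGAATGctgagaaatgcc
Tead3 held a pair of cores 9 bases apart and a further match 2 bases after the start. The promoter windows of Tead2 and Vgll2 held no match to these letters. A match describes the sequence only, since binding was not measured.

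The genes before and after the 9 in the pathway were read from 5 lists of 60 distinct genes. For the calls in every list, the share over all genes tested was 10.6% higher in replicate 1 and 10.9% higher in replicate 2. Genes named below for a call alone, outside the 4 highest of a list, were chosen after their values were seen. In the core kinase cassette all 7 genes were at or above 1 TPM in both libraries, with a median of 6.84 TPM. The highest was Sav1, the scaffold of the MST kinases, with 12.6 TPM in replicate 1 and 12.3 in replicate 2. Mob1b and Mob1a, which activate the LATS kinases, had means of 12.1 ± 0.636 and 6.84 ± 0.346 TPM. Lats2, a kinase that phosphorylates YAP and TAZ, had a mean of 8.47 ± 0.247 TPM. The exact binomial test called 1 gene, Lats1, higher in replicate 1 and 1, Mob1b, higher in replicate 2, and did not call the other 5.

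Among 12 upstream kinases and scaffolds, 10 were at or above 1 TPM in both libraries and the median was 10.8 TPM. Tnik and Map4k4, kinases that can act on LATS beside the MST kinases, were highest, with means of 24.8 ± 0.502 and 22.4 ± 2.33 TPM. Nf2, which encodes the scaffold Merlin, had a mean of 16.1 ± 0.354 TPM, and Taok1, a kinase of the MST kinases, 15.8 ± 0.445 TPM. In this list 1 gene, the kinase Taok2, was called higher in replicate 1 and 2, Tnik and Taok1, higher in replicate 2. For Tnik that is the direction of scaled counts, with a ratio of 0.923, while its level ran the other way, with 25.2 TPM in replicate 1 and 24.5 in replicate 2.

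The junction and cytoskeletal regulators held the highest levels of single genes outside the muscle list. Amotl1, an angiomotin that binds YAP and TAZ in the cytoplasm, had 121.7 TPM in replicate 1 and 116 in replicate 2, and its relative Amot had 96.8 TPM in replicate 1 and 77.6 in replicate 2. Each was above Tead1 in both libraries, while the other 10 of 12 genes were below Yap1. Tjp1, the tight junction protein ZO-1, had a mean of 16.6 ± 3.54 TPM, and Limd1, a LIM protein that binds LATS, 13.4 ± 0.948 TPM. Of the 12, Amot, Tjp1, Ajuba and Fat4, 4 genes, were called higher in replicate 1, against 10.6% of all genes. The cadherin gene Dchs1, 1 gene, was called higher in replicate 2, against 10.9%. Amot was 1.20 times as high in replicate 1 by scaled counts (exact binomial test, adjusted p = 5.43e-51).

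Of 22 genes of a YAP and TAZ target set drawn from human cancers, 18 were at or above 1 TPM in both libraries, with a median of 7.56 TPM over the set. The 4 highest were Axl, a receptor tyrosine kinase, with a mean of 28.9 ± 2.94 TPM, Igfbp3, a binding protein of insulin-like growth factors, with 28.1 ± 3.29 TPM, the matrix gene Ccdc80, with 27.5 ± 4.09 TPM, and the stress gene Gadd45a, with 23.8 ± 3.99 TPM. Of 21 with enough counts, 4 (Igfbp3, Gadd45a, Ccn2 and Crim1) were called higher in replicate 1 and 3 (Ccn1, Ankrd1 and Tgfb2) higher in replicate 2. Ccn2 and Ccn1, matrix proteins often read as YAP targets, thus went opposite ways. Ccn2 had 25.7 TPM in replicate 1 and 16.9 in replicate 2, and was called higher in replicate 1 (exact binomial test, adjusted p = 3.57e-22). Ccn1 had 12.7 TPM in replicate 1 and 15.1 in replicate 2, and was called higher in replicate 2 (exact binomial test, adjusted p = 2.71e-04). With ERCC totals no gene of the set was called higher in replicate 2.

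**Figure D5:**
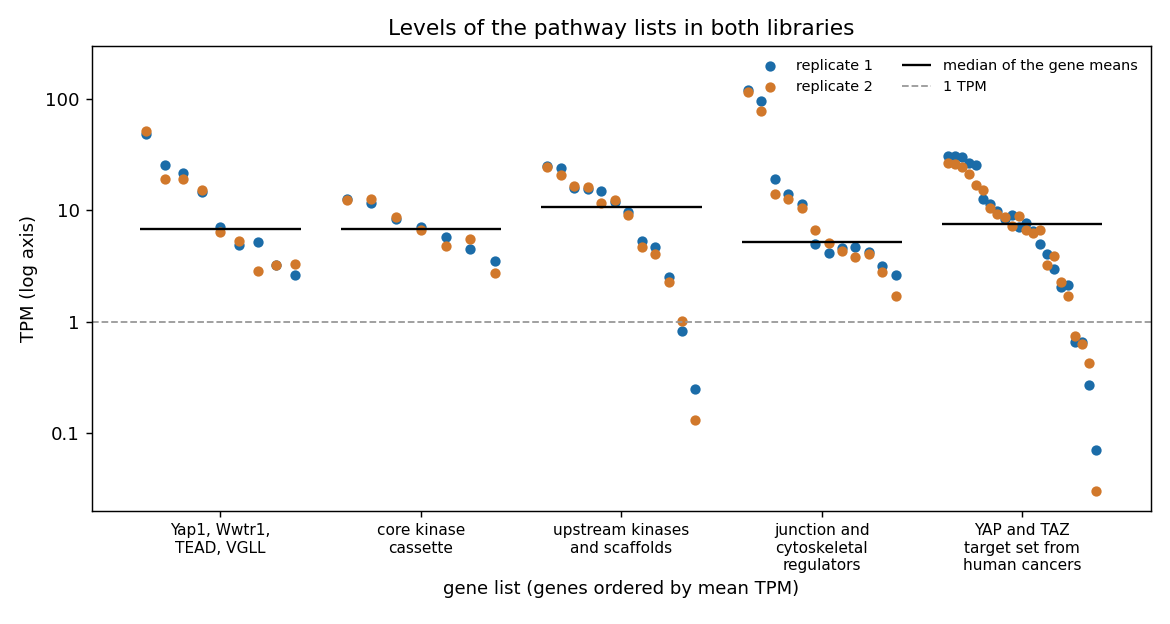
Level in TPM (log axis) of each gene in both libraries, for the 9 genes and 4 pathway lists, ordered by mean within a list, with a black line for the list's median and a dashed line at 1 TPM. The junction list has Amotl1 and Amot far above its median of 5.19 TPM, and the core kinases lie within a narrow range, from 3.13 to 12.4 TPM by mean.

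Muscle genes with described MCAT elements spanned the widest range. Acta1, skeletal muscle actin, had a mean of 27605 ± 1435 TPM, Ckm, muscle creatine kinase, 16679 ± 1052 TPM, Actc1, cardiac actin, 3780 ± 421 TPM, and Myh7, the slow myosin heavy chain, 254 ± 25.5 TPM. Of the 10 genes 1, Myh7, was called higher in replicate 1 and 5, Acta1, Ckm, Actc1, Myog and Cav3, higher in replicate 2. With ERCC totals 8 of the 10 were called higher in replicate 1. So were 5 of 7 core kinases, 10 of 12 upstream genes, 11 of 12 junction genes and 14 of 21 targets, and 0 genes of these 5 pathway lists were called higher in replicate 2. Of all 17245 genes tested, that scaling called 8756 higher in replicate 1 and 296 higher in replicate 2. Over the 5 lists the exact binomial test called no gene with a difference of 2-fold or more.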

How the data were processed

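Total RNA-seq of 2 gastrocnemius libraries was analysed from the authors' tables. The authors deposited expected counts and TPM, per gene and per transcript, from transcriptome alignments, and another transcript table from reads and an index without such alignments, per the deposited descriptions and the file headers. The interval bounds that the deposited gene tables give for TPM were used as a signal of precision in each library. The build was mm10 with GENCODE M21, and the sources used here do not name the aligner or the quantifiers. Reads of the hybrid were not split by allele.

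Expected counts were rounded. Entries with numeric identifiers (26248, holding 3 and 1 counts) and added RNAs (0.731% and 0.881% of counts) stayed out of tests. Libraries were scaled with edgeR 4.0.16 TMM in R 4.3.3 over the 14965 genes kept by filterByExpr. They were compared with the exact binomial test of scipy 1.17.1 at an adjusted p of 0.05. The test was also run on simulated data with counting error only, which cannot show how it behaves where animals or libraries vary. Log differences are replicate 1 over replicate 2 on log2(TPM + 1). Means carry the SD over 2 libraries. Exon shares are sums over the transcripts that hold both flanking exons. The second transcript table was summed per gene for comparison. Size factors of DESeq2 1.42.0 were an alternative, among others given at the end.

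The genes, lists and tests were chosen with earlier results of these data known. By rule the text names all 9 genes and their transcripts whose mean share reached 10% in either quantification (5% for Tead1). The rule also takes the 4 highest genes of each pathway list and its called genes with a 2-fold difference, and the 2 highest of each marker list. Muscle fibre markers were named in full. Other list genes named outside the rule, such as Lats1, Pax7 and Scx, were chosen after their values were seen. Another marker list is not reported here. Proteins were not analysed here. Intervals and floors cover counting error only.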

Additional observations from a re-analysis of the deposited data

How the results depend on the processing

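The count of the 9 genes called stayed between 4 and 6 under every alternative. The 4 called genes passed the threshold in each, but with ERCC totals the calls of Tead1 and Wwtr1 changed direction. Scaling by ERCC totals raised the count of all genes called to 9052, 96.7% of them higher in replicate 1 against 49.4% with TMM. It turned the log2 difference of scaled counts to 0.18 for Tead1, 0.16 for Wwtr1, 0.11 for Tead4 and 0.18 for Vgll3, the first 2 called, and gave Vgll4 a call. It was the only scaling that turned any of the 9. With total counts 56.8% of calls were higher in replicate 1, and 7 genes of the YAP and TAZ target set rather than 4. TMM over all genes, chosen after seeing the data, added Yap1 to the calls. Lats1 was not called with a minimum of 1 count.

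The second quantification moved the Tead1 share of the TEAD sum to 75.0%, the Tead1-201 share to 50.2%, the first 63-base exon to 81.7% and the 12-base exon to 77.6%. Shares of expected counts gave 47.2%, 55.3% and 56.7% for Tead1-201, the first 63-base exon and the 12-base exon. The cause was not tested. Leaving out either library gave 78.3% to 82.0% for the Tead1 share, 66.5% to 72.3% for the Vgll2 share, 1.25 to 1.48 for Yap1 over Wwtr1, 25.3% to 28.1% for Tead1-201, 59.5% to 65.1% for the first 63-base exon and 67.4% to 67.7% for the 12-base exon. Rescaling to nuclear protein-coding genes raised all 9 levels, Tead1 to 105.9 TPM, as the smaller base requires. Tead2 had the fewest counts of the 9 genes, with 161 in replicate 1 and 139 in replicate 2. No paired analysis was possible because both libraries belong to 1 group.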
